A study of Homo sapiens with 36 samples.

Results

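The response of the mantle cell lymphoma line MINO to GS716054 was compared between 24 h and 72 h, to ask which genes responded early, which responded late and which held their response. All 12 MINO libraries were used, of 36 libraries in the series, the other 24 being 12 of JEKO and 12 of UPN-1. Per the labels, GS716054 inhibits lysine demethylase 5 (KDM5), and cells of each line received GS716054 or DMSO as control and were collected 24 h or 72 h later for RNA sequencing. MINO thus had 4 groups of 3 labelled biological replicates, DMSO at 24 h, GS716054 at 24 h, DMSO at 72 h and GS716054 at 72 h. All groups were grown in RPMI-1640 with serum, glutamine and antibiotics. The labels give no dose, no genotype and no medium change between the times, and do not say whether replicates were separate cultures, so the p-values measure the spread between these samples, which may be technical. MINO is 1 established line.

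KDM5 enzymes remove methyl groups from lysine 4 of histone H3, a mark of active promoters, and their inhibitors leave that mark in place. MINO was derived from mantle cell lymphoma, a cancer of mature B cells that carries a translocation driving the cell cycle gene CCND1. ATF4 is a transcription factor that is translated under amino acid shortage and switches on amino acid synthesis and transport, and hypoxia-inducible factors switch on glycolysis and glucose uptake at low oxygen.

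Gene reads ranged from 8784815 to 14970876 per MINO library. All 12 markers of B cells and mantle cell lymphoma had reads, and 11 exceeded 1 CPM (normalised read counts scaled to library size), CD200 being the exception. Markers of T and NK cells summed to 127.9 to 161.6 CPM with DMSO and 226.9 to 251.3 CPM with GS716054 at 24 h, and to 130.5 to 196.9 and 208.1 to 350.9 CPM at 72 h, with CD3D, GZMB and KLRD1 of 15 at 0 in all libraries. On that list 6 genes exceeded 1 CPM, namely CD28, CD3E, CD4, CD8A, PRF1 and TRAC. Of 14 myeloid markers 8 were at 0, MPO, ELANE and S100A8 among them, and 3 exceeded 1 CPM (CD68, ITGAM and LYZ). The myeloid list summed to 2.431 to 3.317 CPM with DMSO and 7.177 to 9.303 CPM with GS716054 at 24 h, and to 1.722 to 4.401 and 3.704 to 6.37 CPM at 72 h. Of 17 erythroid, stromal and epithelial markers 9 were at 0, the globin genes among them, and 4 exceeded 1 CPM (COL1A1, EPCAM, PDGFRB and PECAM1). This list summed to 9.968 to 12.95 and 11.08 to 13.27 CPM at 24 h and to 12.85 to 19.85 and 28.15 to 37.7 CPM at 72 h. The part of these markers in the results was not tested. On the first principal component, which held 37.2% of the variance, both replicate 2 libraries of 72 h stood apart from the other 72 h libraries, at 49.0 (DMSO) and 81.8 (GS716054) against −1.28 to 18.03 for the other 4. Several genes below were far higher in these 2 libraries than in the other 4 of 72 h, and the genes that the results turn on are therefore given by library.

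The response at a time is GS716054 minus DMSO as a log2 fold change, and the change is the response at 72 h minus the response at 24 h. Both came from 1 edgeR quasi-likelihood model in which the DMSO and GS716054 libraries of the same time and replicate number formed a block. A call means that the p-value, adjusted by the Benjamini-Hochberg method across the 15028 genes in the fit, was under 0.05. The 24 h response passed for 2373 genes (15.8%), with 1267 higher (8.43%) and 1106 lower (7.36%) under GS716054. The 72 h response passed for 3029 genes (20.2%), with 1556 higher (10.4%) and 1473 lower (9.8%). The change was called for 102 genes (0.679%), which moved up in 28 (0.186%) and down in 74 (0.492%), where down means a lower response at 72 h than at 24 h. At an unadjusted p under 0.05 the change stood at 1822 genes.

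The 102 genes fell into classes by their calls at each time. Late-only genes, called at 72 h and not at 24 h, numbered 49, of which 10 were higher and 39 lower with GS716054. Early-only genes, called at 24 h and not at 72 h, numbered 18, of which 14 were higher and 4 lower. In 18 genes the response reversed, from higher at 24 h to lower at 72 h in 15 and the opposite way in 3. In 15 genes it strengthened in the same direction (10 higher, 5 lower), and in 2 it weakened. Sustained genes were called at both times in the same direction with no call on the change, and numbered 1253 (8.34% of the genes tested), 717 higher and 536 lower. For 1049 of these (83.7%), the 95% interval of the change lay within 1 log2 unit of 0. The same held for 63.9% of genes with no call at either time or in the change. The median size of a sustained response was 0.69 at each time, under that bound, so the bound does not show that a response was held. A further 1067 genes were called at 24 h alone and 1692 at 72 h alone without a call on the change, so that a difference between the times was not shown for them. Of the genes called at 24 h, 93.2% had the same sign at 72 h, and of those called at 72 h, 89.2% had the same sign at 24 h. Groups of treated and DMSO libraries did not overlap for 34.9% of tested genes at 24 h and 22.5% at 72 h, and the 3 within-number differences of 72 h did not overlap those of 24 h for 18.5%, as they did not for the 102. Across tested genes, which are not independent replicates, the responses at both times had a Pearson r of 0.579 as a description.

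**Figure D1:**
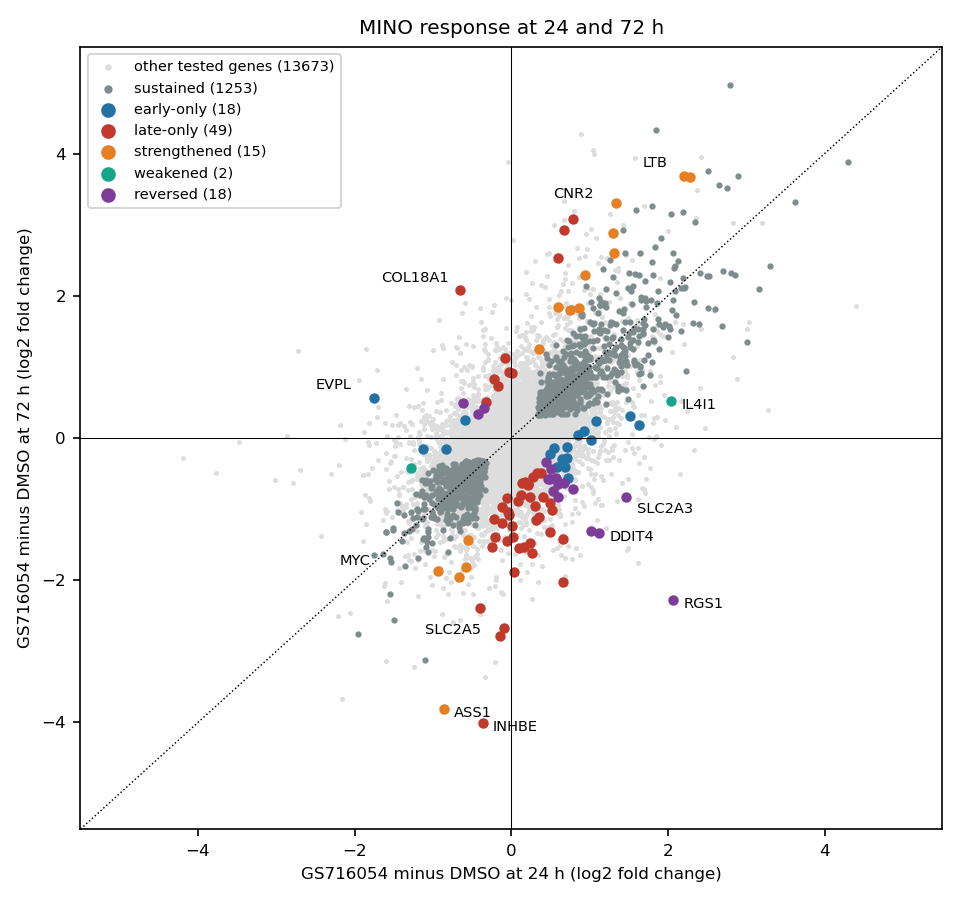
Each point is 1 of 15028 tested genes, placed by its log2 response to GS716054 at 24 h (horizontal) and at 72 h (vertical), the dotted line marking equal responses. The 1253 sustained genes lie along the line, while most late-only genes (red) lie below 0 at 72 h and reversed genes (purple) lie mainly in the lower right.

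The number of genes called in the change depended on the pairing and on single libraries. Without the block the count was 2, ASS1 and INHBE, with adjusted p of 0.025 and 0.0277, and every other named gene then had an adjusted p of at least 0.316. Leaving out 1 replicate number of 1 time at a time left 13 (24 h, number 1), 34 (24 h, number 2), 16 (24 h, number 3), 77 (72 h, number 1), 611 (72 h, number 2) and 156 calls (72 h, number 3). Without number 2 at both times there were 1021 calls, 502 up and 519 down, so that the share moving down was 50.8% in place of 72.5%. All 102 genes kept their direction in each of these fits, and 13 of them were called in all 6 fits without 1 number. Of the 35 named genes with a call, 7 were called in all 6, among them ASS1, INHBE, DDIT4, SLC2A5, WARS1 and COL18A1, and the other 28 lost the call in at least 1. The class of a gene rests on its calls at 24 h and 72 h as well. In these 6 fits and the fit without number 2 at both times, a call at 24 h or 72 h differed at least once for 19 of the 35 named genes, namely ALDOC, ARID5B, ASS1, CD9, CNR2, COL18A1, CXCR3, EVPL, GPM6A, IL4I1, LGALS3BP, NPTXR, PPP1R14B, REL, RGS1, SLC19A1, SLC2A3, SPP1 and TSC22D3, so that their class is less certain than the direction of their change.

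Among the 74 genes that moved down, the DMSO libraries themselves had moved. Their mean DMSO level was higher at 72 h than at 24 h in 69 of 74, against 52.7% of all tested genes, with a median DMSO shift of 1.04 log2 units. The median shift of the GS716054 libraries of these genes was −0.26, and 25 of 74 were higher at 72 h. Among the 28 genes that moved up, the GS716054 libraries were higher at 72 h in all 28, with a median shift of 0.80, while the median DMSO shift was −0.17. Because the change is built from both shifts, these values describe which group moved and are not a test.

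Among the gene lists, that of the ATF4 and amino acid response held the most genes called in the change. Counts for each list stand beside the shares over all tested genes. These were 8.43% higher and 7.36% lower at 24 h, and 10.4% higher and 9.8% lower at 72 h. In the change they were 0.186% up and 0.492% down. Of 30 tested genes of the ATF4 and amino acid response, 13 were lower and 1 higher at 24 h, 24 were lower and none higher at 72 h, and 6 moved down in the change (INHBE, ASS1, DDIT4, ATF5, SESN2 and PHGDH), with none moving up. The list's median response went from −0.48 at 24 h to −1.07 at 72 h, and its median change of −0.51 compares with −0.02 over all tested genes. Under DMSO its median shift from 24 h to 72 h was 0.81 log2 units, and under GS716054 it was 0.29. The count of 6 was 3 without number 1 or 3 of 24 h or number 1 of 72 h, 2 without the block, and 10 without number 2 at both times.

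ASS1 (chromosome 9, 130444961 to 130501274, GRCh38), argininosuccinate synthase, makes the precursor of arginine and lets cells grow without arginine from outside. With DMSO at 24 h its level was 14.5, 18.7 and 11.5 CPM in replicates 1, 2 and 3, and with GS716054 it was 9.40, 7.68 and 7.43 CPM. At 72 h it was 162.0, 189.9 and 185.7 CPM with DMSO and 9.77, 19.3 and 10.4 CPM with GS716054. Every DMSO library of 72 h was thus far above the other 9 libraries, and the GS716054 libraries of 72 h overlapped the levels of 24 h. The response went from −0.86 ± 0.19 (SE, n = 3 pairs) to −3.81 ± 0.17, and the change was −2.95 (95% interval −3.49 to −2.41, edgeR adjusted p = 0.000114).

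INHBE (chromosome 12, 57452323 to 57459280), which encodes the beta E chain of inhibin, was at 2.94, 2.84 and 2.35 CPM with DMSO and 2.27, 2.34 and 1.71 CPM with GS716054 at 24 h. The 72 h levels were 17.1, 20.9 and 18.1 CPM with DMSO and 1.98, 1.15 and 0.516 CPM with GS716054. The DMSO libraries of 72 h lay above all others without overlap, and 2 of 3 GS716054 libraries of 72 h lay below all libraries of 24 h. Its change was −3.64 (95% interval −4.62 to −2.67, adjusted p = 0.00185). INHBE shares 16.4% of its exon length with an antisense gene, and the counts were not stated to use strand.

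ATF5, a transcription factor of the same stress response, was 382.6 ± 169 CPM (SD, n = 3) with DMSO and 326.3 ± 124 CPM with GS716054 at 24 h. Its 72 h levels were 836, 1782 and 929 CPM with DMSO and 336, 930 and 241 CPM with GS716054. Each GS716054 library of 72 h was below the DMSO library of its number, although the groups overlapped through the high replicate 2. Its change was −1.19 (adjusted p = 0.0335). ATF5 shares 19.5% of its exon length with genes on the opposite strand, chiefly NUP62. SESN2, an inhibitor of mTORC1 under amino acid shortage, had a response of 0.24 ± 0.15 at 24 h and −0.83 ± 0.14 at 72 h, and PHGDH, the first enzyme of serine synthesis, had −0.94 ± 0.14 and −1.87 ± 0.14, with adjusted p for the change of 0.0309 and 0.0438. ATF4 itself was lower at both times (−0.74 ± 0.13 and −1.10 ± 0.13), and its change of −0.35 ± 0.19 had an adjusted p of 0.479.

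Transfer RNA ligases, which load amino acids onto tRNA and are partly under ATF4, were lower more often than higher at both times. Of 18 tested, 9 were lower at 24 h and 13 at 72 h, with none higher. Sustained members numbered 8, and 1 member moved down in the change. That gene was WARS1, the tryptophan ligase, at 136.4, 148.5 and 157.3 CPM with DMSO and 128.5, 155.0 and 143.7 CPM with GS716054 at 24 h. The levels of 72 h were 303.1, 217.6 and 309.5 CPM with DMSO and 111.6, 71.9 and 124.5 CPM with GS716054, so that the groups overlapped at 24 h and were apart at 72 h. The change of WARS1 was −1.40 (95% interval −1.72 to −1.07, adjusted p = 0.000998). WARS1 shares 10.6% of its exon length with the opposite strand, chiefly with an antisense gene that was also called (change −1.88).

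**Figure D2:**
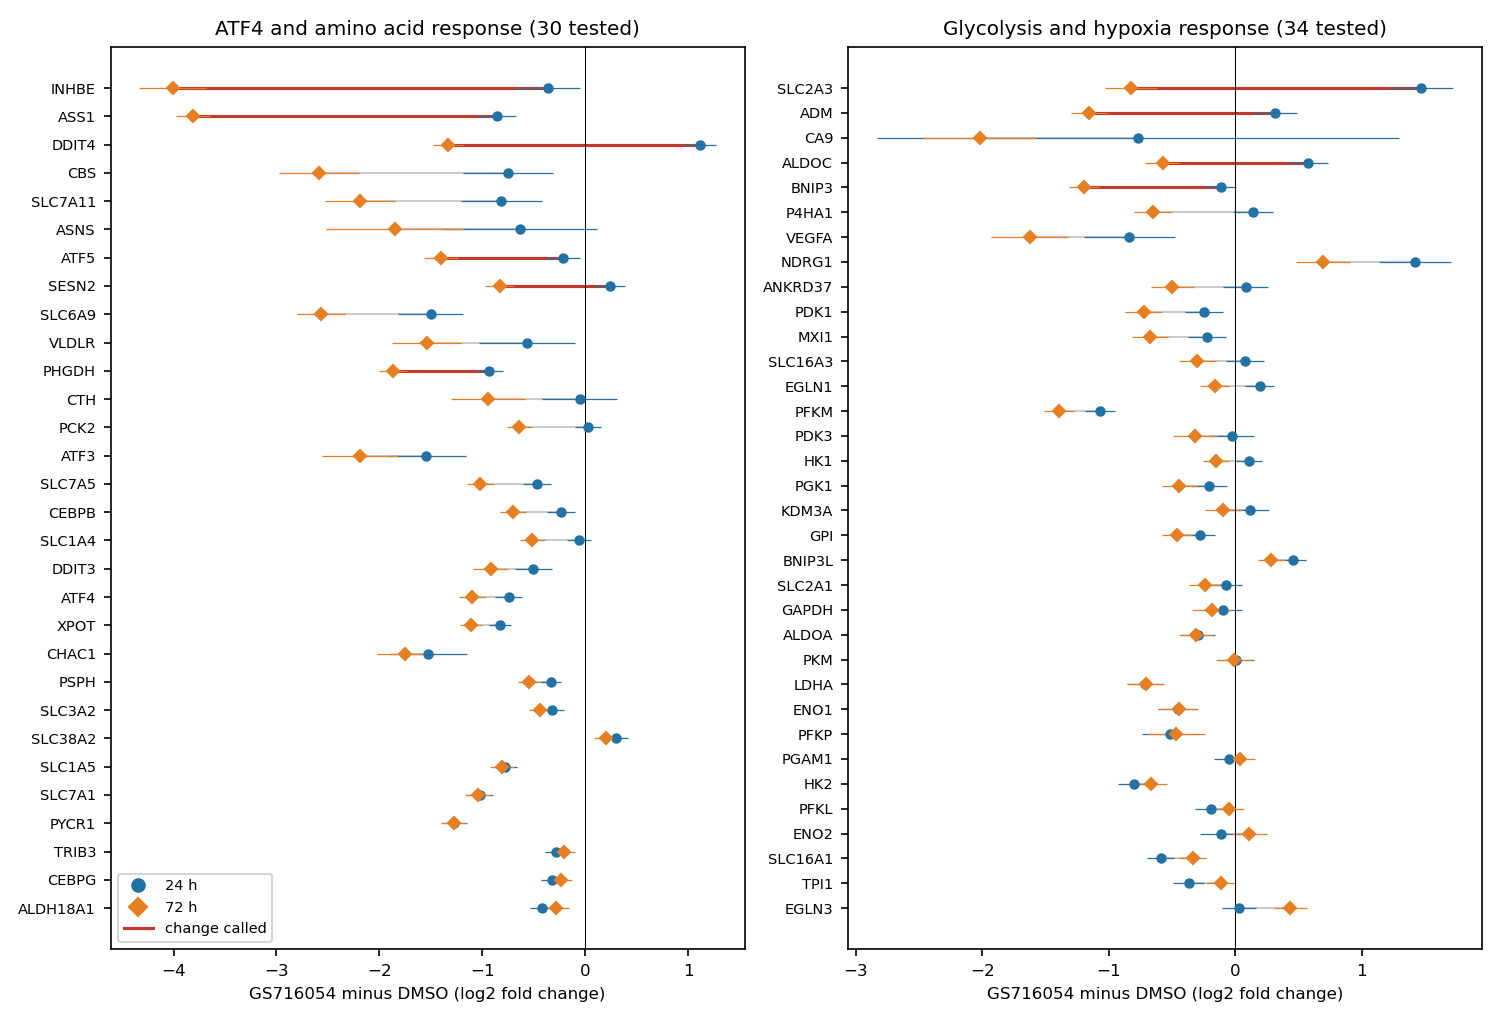
Log2 response to GS716054 at 24 h (blue circles) and 72 h (orange diamonds) of each tested gene of the ATF4 list (30 genes) and the glycolysis and hypoxia list (34 genes), with bars for the SE and red lines where the change was called. INHBE moved from −0.36 to −4.01, and SLC2A3 and DDIT4 crossed 0 from above to below.

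On the list of glycolysis and the hypoxia response, the genes with a called change were 2 reversed and 2 late-only genes. The 72 h call of each reversed gene was lost without 1 pair of libraries, number 2 for SLC2A3 and number 3 for ALDOC. In both genes the 3 pairs agreed in direction at each time. Of 34 tested genes of glycolysis and the hypoxia response, 4 were higher and 4 lower at 24 h, 2 were higher and 15 lower at 72 h, and 4 moved down in the change (SLC2A3, ADM, ALDOC and BNIP3), with none moving up. The median response went from −0.11 to −0.39, with a median change of −0.22. The median shift between the times was 0.58 under DMSO and 0.48 under GS716054. No member was called without the block or without number 1 of 24 h, while 2 were called without number 2 and 1 without number 3 of 24 h, 7 without number 2 of 72 h and 8 without number 2 at both times.

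DDIT4, which restrains mTORC1 under hypoxia and amino acid shortage, is on chromosome 10 (72273919 to 72276036). At 24 h it was at 26.9, 91.1 and 22.8 CPM with DMSO and 61.0, 151.6 and 63.9 CPM with GS716054. At 72 h it was at 91.9, 918.5 and 111.7 CPM with DMSO and 36.2, 293.5 and 56.1 CPM with GS716054. Within each replicate number GS716054 was therefore above DMSO at 24 h and below it at 72 h, while replicate 2 was the highest of every group. The response was 1.12 ± 0.15 at 24 h and −1.33 ± 0.15 at 72 h, and the change was −2.45 (95% interval −2.91 to −1.99, adjusted p = 0.000114).

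SLC2A3, the high-affinity glucose transporter GLUT3, was at 3.16, 6.47 and 4.46 CPM with DMSO and 10.5, 20.7 and 8.89 CPM with GS716054 at 24 h. Its 72 h levels were 11.6, 439 and 10.2 CPM with DMSO and 9.99, 158 and 7.92 CPM with GS716054. Replicate 2 thus exceeded the other 72 h libraries by over an order of magnitude, and the fall in numbers 1 and 3 was small beside it. The response went from 1.47 ± 0.25 to −0.82 ± 0.21, with a change of −2.29 (adjusted p = 0.00625). Without number 2 of 72 h the 72 h response of SLC2A3 was −0.30 (adjusted p = 0.319), and without number 2 at both times it was −0.31 (adjusted p = 0.288), so that the reversal was not called there.

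ALDOC, a glycolytic aldolase, had a response of 0.58 ± 0.15 at 24 h and −0.58 ± 0.14 at 72 h. Its DMSO libraries went from 15.1, 30.6 and 11.1 CPM to 45.4, 327 and 51.9 CPM, and its GS716054 libraries from 24.1, 42.3 and 16.97 CPM to 37.3, 250 and 24.4 CPM. Both treatments were higher at 72 h than at 24 h in each replicate number. The change was −1.15 (95% interval −1.59 to −0.71, adjusted p = 0.0241). Without number 3 of 72 h the 72 h response of ALDOC was −0.35 (adjusted p = 0.0868), and without any 1 pair of 24 h its 24 h response was not called (adjusted p from 0.113 to 0.134). ALDOC shares 11.3% of its exon length with an opposite-strand gene that was also called.

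BNIP3, a protein of mitophagy, and ADM, the vasoactive peptide adrenomedullin, were late-only. BNIP3 was at 28.2, 66.9 and 22.8 CPM with DMSO and 28.0, 51.1 and 24.4 CPM with GS716054 at 24 h, and at 61.1, 367 and 59.6 CPM against 29.5, 153 and 24.7 CPM at 72 h. ADM was at 3.05, 21.7 and 3.97 CPM with DMSO and 4.35, 23.1 and 5.88 CPM with GS716054 at 24 h, and at 19.8, 147 and 19.6 CPM against 10.8, 54.4 and 9.55 CPM at 72 h. In each number the ratio of 72 h to 24 h was larger for DMSO than for GS716054. The change was −1.08 ± 0.17 for BNIP3 (adjusted p = 0.0111) and −1.47 ± 0.22 for ADM (adjusted p = 0.0102). SLC2A5, a fructose transporter outside this list, was at 7.42, 6.71 and 7.70 CPM with DMSO and 5.54, 6.26 and 8.73 CPM with GS716054 at 24 h. The levels of 72 h were 8.68, 50.9 and 7.81 CPM against 1.54, 6.26 and 1.72 CPM, lower in each number, and its change was −2.57 ± 0.30 (adjusted p = 0.00147).

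The promoters of 6 genes called in the change are shown, each with its highest level of each replicate number in the DMSO library of 72 h. DDIT4, BNIP3, ADM and ALDOC were chosen because a motif was found in them, and ASS1 and ATF5 because it was not. Each is the 250 bases before the RefSeq gene start (GRCh38.p14), on the gene's strand, with capitals marking the core of the hypoxia response element, searched as ACGTG or GCGTG on both strands, each match counted also where it overlaps another. That core was found in 43.1% of 27305 promoters of that length, in 3 of 3 matched genes of the glycolysis and hypoxia list with a called change, and in 1 of 5 matched genes of the ATF4 list with a called change. The ATF4 element searched as TGATGNAA was found in 3.19% of promoters and in none of these 8 promoters. The matches are letters in a window, and no binding was measured. The windows and strands are chr10:72273674-72273923 (plus) for DDIT4, chr10:131981924-131982173 (minus) for BNIP3, chr11:10304823-10305072 (plus) for ADM, chr17:28576896-28577145 (minus) for ALDOC, chr9:130444457-130444706 (plus) for ASS1, chr19:49928656-49928905 (plus) for ATF5.
DDIT4: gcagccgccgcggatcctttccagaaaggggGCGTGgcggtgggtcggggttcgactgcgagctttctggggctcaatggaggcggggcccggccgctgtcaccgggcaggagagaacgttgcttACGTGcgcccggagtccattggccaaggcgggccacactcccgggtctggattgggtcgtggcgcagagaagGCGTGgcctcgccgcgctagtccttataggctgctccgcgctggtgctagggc
BNIP3: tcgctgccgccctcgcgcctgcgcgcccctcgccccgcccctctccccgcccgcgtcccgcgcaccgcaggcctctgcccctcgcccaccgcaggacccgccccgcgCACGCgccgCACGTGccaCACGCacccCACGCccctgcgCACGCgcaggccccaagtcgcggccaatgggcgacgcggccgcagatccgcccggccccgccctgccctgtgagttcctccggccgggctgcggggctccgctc
ADM: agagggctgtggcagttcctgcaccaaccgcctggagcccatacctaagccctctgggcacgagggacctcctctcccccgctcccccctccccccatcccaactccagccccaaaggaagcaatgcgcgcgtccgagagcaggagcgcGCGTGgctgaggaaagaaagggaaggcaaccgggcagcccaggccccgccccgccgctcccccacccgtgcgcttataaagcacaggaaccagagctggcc
ALDOC: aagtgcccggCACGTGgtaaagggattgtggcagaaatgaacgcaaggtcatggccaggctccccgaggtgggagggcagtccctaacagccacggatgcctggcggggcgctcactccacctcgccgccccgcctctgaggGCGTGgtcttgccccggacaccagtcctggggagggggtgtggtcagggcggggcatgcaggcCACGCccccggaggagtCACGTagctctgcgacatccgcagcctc
ASS1: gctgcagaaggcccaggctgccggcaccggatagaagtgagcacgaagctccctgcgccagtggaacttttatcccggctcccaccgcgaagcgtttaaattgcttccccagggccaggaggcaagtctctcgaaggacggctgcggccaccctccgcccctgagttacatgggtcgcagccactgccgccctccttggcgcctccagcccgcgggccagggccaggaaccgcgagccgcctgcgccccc
ATF5: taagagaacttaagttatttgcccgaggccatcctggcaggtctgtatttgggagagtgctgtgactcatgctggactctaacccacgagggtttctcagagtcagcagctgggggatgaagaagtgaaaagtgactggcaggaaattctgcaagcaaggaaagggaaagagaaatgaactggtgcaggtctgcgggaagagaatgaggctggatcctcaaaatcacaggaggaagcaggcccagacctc
The core occurred 3 times for DDIT4, 6 times for BNIP3, 1 time for ADM, 5 times for ALDOC and 0 times for ASS1, ATF5, PHGDH and SESN2.

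**Figure D3:**
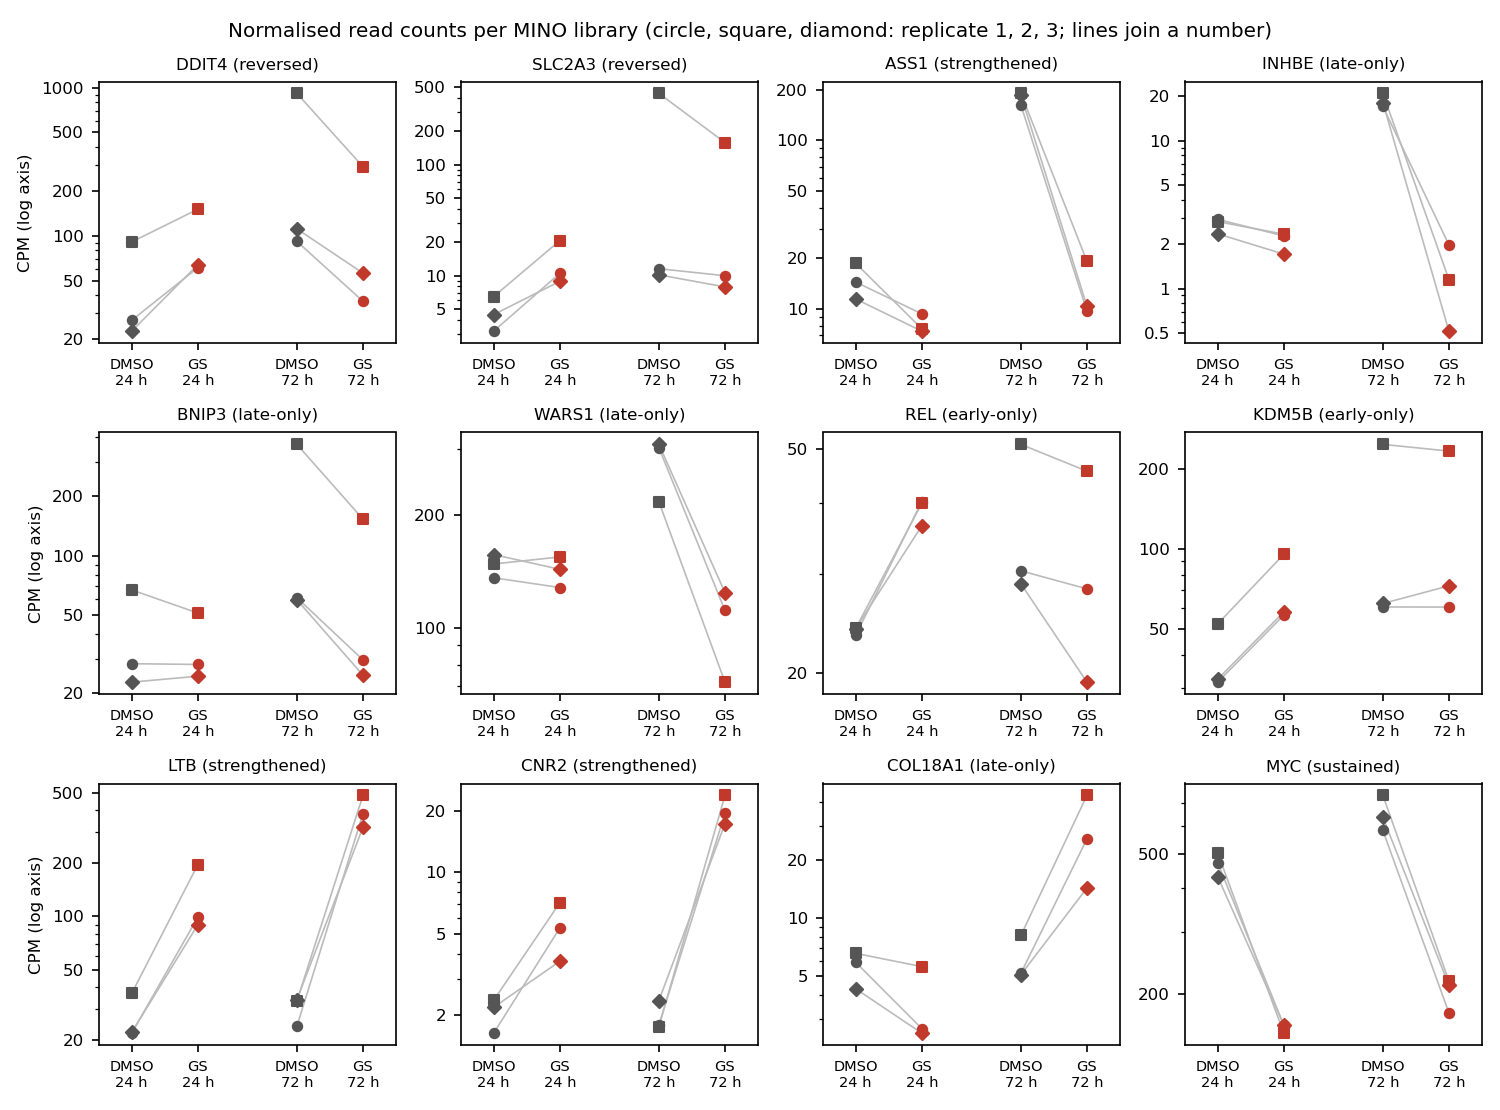
Normalised read counts (CPM, log axis) of 12 genes in the 12 MINO libraries, with grey points for DMSO, red points for GS716054 and lines joining the libraries of the same time and replicate number. For ASS1 and INHBE the 3 DMSO libraries of 72 h stand above all others, while for DDIT4, SLC2A3, BNIP3 and KDM5B replicate 2 (squares) is the highest of each 72 h group.

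Other late falls had no common list. SPP1, the secreted phosphoprotein osteopontin, was at 29.9, 82.9 and 31.2 CPM with DMSO and 55.6, 98.2 and 58.2 CPM with GS716054 at 24 h. At 72 h it was at 141, 1615 and 132 CPM with DMSO and 64.9, 869 and 25.6 CPM with GS716054, and its change was −2.09 ± 0.31 (adjusted p = 0.0102). The 24 h response of SPP1 was 0.67 ± 0.22 (adjusted p = 0.0609). Without number 2 of 72 h it was 0.64 (adjusted p = 0.00634), and without number 2 at both times 0.89 (adjusted p = 0.000279), so that SPP1 then reversed. Without any 1 pair of 24 h that response was not called (adjusted p from 0.113 to 0.331). ST6GALNAC3, a sialyltransferase, fell late from a low level, at 7.23 ± 1.40 CPM (SD, n = 3) with DMSO and 1.05 ± 0.651 CPM with GS716054 at 72 h, and its adjusted p for the change was 0.048. GPM6A, a membrane glycoprotein best known in neurons, was lower at both times and more so at 72 h (−0.67 ± 0.15 and −1.96 ± 0.16, adjusted p for the change 0.0228).

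RGS1, a regulator of G-protein signalling in B cells, had the largest change among the named genes, and that value rested on 1 pair of libraries. It was at 1.96, 2.76 and 3.40 CPM with DMSO and 6.73, 10.4 and 17.4 CPM with GS716054 at 24 h. Its 72 h levels were 0.718, 303 and 0.605 CPM with DMSO and 0.988, 32.6 and 1.72 CPM with GS716054. GS716054 was below DMSO at 72 h in replicate 2 only, and above it in replicates 1 and 3. The change of −4.34 ± 0.74 (adjusted p = 0.0241) became −1.003 without replicate 2 of 72 h (adjusted p = 0.311) and −1.09 without number 2 at both times (adjusted p = 0.271). With DESeq2 it was −2.38 (adjusted p = 0.563). The 72 h response of RGS1 itself turned from −2.28 to 1.04 without replicate 2 of 72 h (adjusted p = 0.107), so the reversal is not seen without that pair.

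Early-only genes were higher with GS716054 at 24 h in 14 of 18. KDM5B, a target family member of the inhibitor, was early-only. Its level was 31.5, 52.2 and 32.3 CPM with DMSO and 56.3, 95.3 and 57.9 CPM with GS716054 at 24 h. At 72 h it was at 60.4, 247 and 62.3 CPM with DMSO and 60.4, 233 and 72.6 CPM with GS716054. DMSO had thus reached the GS716054 level of 24 h by 72 h in each number. The response fell from 0.85 ± 0.11 to 0.04 ± 0.10, and the change was −0.81 (adjusted p = 0.0254). KDM5A (change −0.33 ± 0.15, adjusted p = 0.412) and KDM5C (−0.22 ± 0.15, adjusted p = 0.592) were not called at either time or in the change. Of 21 tested H3K4 methylation enzymes, KDM5B was the 1 gene called in the change.

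TSC22D3, the glucocorticoid-induced leucine zipper protein, had a response of 1.52 ± 0.17 at 24 h and 0.31 ± 0.15 at 72 h (adjusted p for the change 0.0262), with a DMSO level of 7.16 ± 0.185 CPM and then 24.4 ± 22.3 CPM (SD, n = 3). By library at 72 h it was at 12.5, 50.2 and 10.5 CPM with DMSO and 16.9, 47.2 and 16.5 CPM with GS716054, highest in replicate 2 of both. Without number 2 of 72 h its 72 h response was 0.53 (adjusted p = 0.0258), and without number 2 at both times 0.52 (adjusted p = 0.0178), so that TSC22D3 was then higher at both times. ARID5B, a chromatin protein with an AT-rich interaction domain, had 0.73 ± 0.19 and −0.56 ± 0.19, and its change of −1.29 (adjusted p = 0.048) was −0.93 without number 2 of 72 h and −0.77 without number 2 at both times, with a call in both. Its DMSO libraries of 72 h were at 25.3, 83.4 and 23.2 CPM, again highest in replicate 2, and without number 3 of 72 h its 72 h response was −0.87 (adjusted p = 0.00383). TENT5C, a poly(A) polymerase, had 0.93 ± 0.10 and 0.10 ± 0.10 (adjusted p 0.023). Lower at 24 h alone were EVPL, a desmosomal protein at 1.49 ± 0.55 CPM with GS716054 against 4.97 ± 1.38 CPM with DMSO, PPP1R14B, an inhibitor of protein phosphatase 1 (−0.58 ± 0.11 and then 0.26 ± 0.11), and POLR1G, a subunit of RNA polymerase I (−1.12 ± 0.12 and then −0.15 ± 0.12). POLR1G shares 49.8% of its exon length with ERCC1 on the opposite strand, so its counts are uncertain.

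NF-kappaB, which controls B-cell survival and cytokine genes, had 20 of 25 tested list members higher at 24 h and 13 at 72 h, with none lower at either time. In the change 1 member moved up (LTB) and 1 moved down (REL), and the list's median response went from 0.83 to 0.43. REL, the c-Rel subunit of NF-kappaB, was at 23.3, 24.0 and 24.0 CPM with DMSO and 40.3, 40.0 and 36.5 CPM with GS716054 at 24 h, and at 30.4, 50.9 and 28.8 CPM against 28.2, 45.6 and 19.3 CPM at 72 h. GS716054 was above DMSO in each number at 24 h and below it in each at 72 h. Its change was −0.98 ± 0.18 (adjusted p = 0.0241). The chemokine genes CCL3 and CCL4 had responses of 1.02 ± 0.20 and 1.38 ± 0.19 at 24 h and of 0.11 ± 0.20 and 0.43 ± 0.19 at 72 h, but their changes had adjusted p of 0.204 and 0.166. IL4I1, a secreted amino acid oxidase, was the 1 higher gene whose response weakened, from 2.04 ± 0.17 to 0.52 ± 0.17 (adjusted p for the change 0.015).

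LTB, the membrane-anchored lymphotoxin beta chain of the TNF superfamily, had a response that strengthened. It was at 21.9, 36.7 and 22.1 CPM with DMSO and 98.9, 196 and 89.7 CPM with GS716054 at 24 h. Its 72 h levels were 24.0, 33.2 and 33.9 CPM with DMSO and 381, 483 and 319 CPM with GS716054. The DMSO groups overlapped between the times, and the GS716054 libraries of 72 h lay above all other 9. The response grew from 2.21 ± 0.15 to 3.69 ± 0.14, with a change of 1.48 (95% interval 1.04 to 1.92, adjusted p = 0.00462).

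CNR2, the cannabinoid receptor of lymphocytes, showed the same order at a lower level, at 1.64, 2.37 and 2.19 CPM with DMSO and 5.34, 7.09 and 3.67 CPM with GS716054 at 24 h. The levels of 72 h were 1.79, 1.76 and 2.36 CPM against 19.4, 23.8 and 17.3 CPM. The change was 1.98 ± 0.36 (adjusted p = 0.0262). NCR3, an activating receptor named for NK cells, had 1.30 ± 0.22 and 2.88 ± 0.21, and CD9, a tetraspanin of the cell surface, had 0.75 ± 0.15 and 1.81 ± 0.14, with adjusted p for the change of 0.0298 and 0.0287.

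Late-only rises were fewer than late-only falls. COL18A1 (chromosome 21, 45405165 to 45513720), a basement membrane collagen, was at 5.89, 6.55 and 4.29 CPM with DMSO and 2.67, 5.59 and 2.53 CPM with GS716054 at 24 h. At 72 h it was at 5.17, 8.12 and 5.08 CPM with DMSO and 25.7, 43.1 and 14.3 CPM with GS716054. GS716054 was below DMSO in each number at 24 h and above every other library at 72 h. The change was 2.73 (95% interval 2.04 to 3.43, adjusted p = 0.00147). COL18A1 shares 18.5% of its exon length with SLC19A1, the reduced folate carrier on the opposite strand, whose own response weakened from −1.28 ± 0.12 to −0.42 ± 0.12 (adjusted p for the change 0.0316).

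CXCR3, a chemokine receptor of activated lymphocytes, was at 9.16, 4.34 and 8.59 CPM with DMSO and 14.9, 12.9 and 9.63 CPM with GS716054 at 24 h. At 72 h the DMSO libraries were at 2.37, 0.489 and 2.00 CPM and the GS716054 libraries at 16.4, 12.3 and 12.7 CPM. The DMSO libraries were lower at 72 h in each number while the GS716054 level overlapped that of 24 h, and the change was 2.29 ± 0.43 (adjusted p = 0.0284). NPTXR, a pentraxin receptor best known at synapses, was at 38.1 ± 3.24 CPM with GS716054 at 72 h and at 4.66 to 6.99 CPM in the means of the other 3 groups (adjusted p for the change 0.023). Of 26 tested replication-dependent histone genes, 2 moved up in the change, H2BC5 and H2AC6. H2BC5 was at 1.72, 10.5 and 1.81 CPM with DMSO and 5.60, 126 and 11.96 CPM with GS716054 at 72 h, higher with GS716054 in each number but with most of the level in replicate 2, and its change was 2.25 ± 0.40 (adjusted p = 0.0241).

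Interferon-stimulated genes, which carry out the antiviral response, had 10 of 36 tested members higher at 24 h and 24 at 72 h, with none lower. The median response went from 0.37 to 0.73, and the GS716054 libraries had a median shift of 0.43 with time against −0.07 for DMSO. The change was called for 1 of the 36, LGALS3BP, a secreted galectin-binding glycoprotein that was at 10.6, 7.82 and 11.8 CPM with DMSO and 18.8, 13.2 and 13.9 CPM with GS716054 at 24 h, and at 8.76, 10.9 and 8.23 CPM against 32.0, 39.7 and 28.1 CPM at 72 h. Its change was 1.23 ± 0.21 (adjusted p = 0.023). ISG15, a ubiquitin-like protein, went from 0.03 ± 0.14 to 0.94 ± 0.14 and MX1, an antiviral GTPase, from −0.05 ± 0.18 to 1.04 ± 0.18, with adjusted p for the change of 0.0507 and 0.0871.

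Genes best known in this lymphoma were not called in the change. MYC, which drives growth and ribosome production, was at 472, 504 and 431 CPM with DMSO and 163, 154 and 163 CPM with GS716054 at 24 h. Its 72 h levels were 583, 735 and 636 CPM against 176, 217 and 211 CPM, with no overlap between the treatments at either time. The response was −1.55 ± 0.11 and −1.69 ± 0.11, and the change was −0.14 (95% interval −0.49 to 0.20, adjusted p = 0.768). MCL1, a survival protein of the BCL2 family, was higher by 0.71 ± 0.13 and 0.81 ± 0.13, with a change of 0.10 (95% interval −0.28 to 0.48).

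CCND1 (change 0.28, 95% interval −0.18 to 0.74) and SOX11, a transcription factor typical of this lymphoma (−0.04, interval −0.39 to 0.31), were not called at either time. BCL2 was called at 24 h alone (0.50 ± 0.14 and 0.07 ± 0.14) and BTK, the kinase targeted by ibrutinib, at 72 h alone (−0.05 ± 0.12 and −0.39 ± 0.12), but the difference between the times was not shown for either (adjusted p = 0.392 and 0.444). CDKN1A, a cell cycle inhibitor, was not called at either time (0.26 ± 0.15 and −0.13 ± 0.15). Of 14 tested BCL2 family genes, 8 were higher at each time, against 8.43% of all tested genes at 24 h and 10.4% at 72 h. None moved in the change, which says little about a list of 14 when 0.679% of all tested genes were called.

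Sustained genes with the largest responses included CCL22, a chemokine (2.51 ± 0.29 and 3.76 ± 0.34), PPP1R17, a phosphatase inhibitor (2.65 ± 0.41 and 3.56 ± 0.48), and CRIP2, a LIM domain protein (2.35 ± 0.25 and 3.04 ± 0.18). On the lower side they were ATF3, a stress transcription factor (−1.55 ± 0.39 and −2.19 ± 0.37), and ADAMTS14, a metalloprotease (−1.64 ± 0.41 and −1.64 ± 0.31), beside MYC. CCL22 was at 1.20, 10.7 and 4.29 CPM with DMSO and 17.9, 68.8 and 11.7 CPM with GS716054 at 24 h, and at 1.65, 2.15 and 1.63 CPM against 30.8, 20.5 and 22.2 CPM at 72 h. Its change of 1.25 had a 95% interval of 0.30 to 2.2 and an adjusted p of 0.264, so the absence of a call does not show that its response stayed equal.

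Growth programmes were called at both times in different numbers. No member of the following lists was called in the change, against 0.679% of all tested genes. Of 34 ribosome biogenesis genes, 29 were lower at 24 h and 15 at 72 h, and the median response went from −0.62 to −0.32. Of 40 genes of DNA replication and the G1/S step, 29 were lower at 24 h and 13 at 72 h (medians −0.49 and −0.32). Of 40 genes of mitosis and G2/M, 2 were lower at 24 h and 18 at 72 h (medians −0.19 and −0.46). The sign of the change was negative in 8.82% of the ribosome genes, 27.5% of the replication genes and 92.5% of the mitosis genes, against 51.8% of all tested genes, and members of a list are not independent. Nucleotide and folate synthesis had 18 of 24 lower at 24 h and 13 at 72 h. B-cell receptor signalling had 13 of 25 higher at 24 h, and 9 higher and 1 lower at 72 h.

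**Figure D4:**
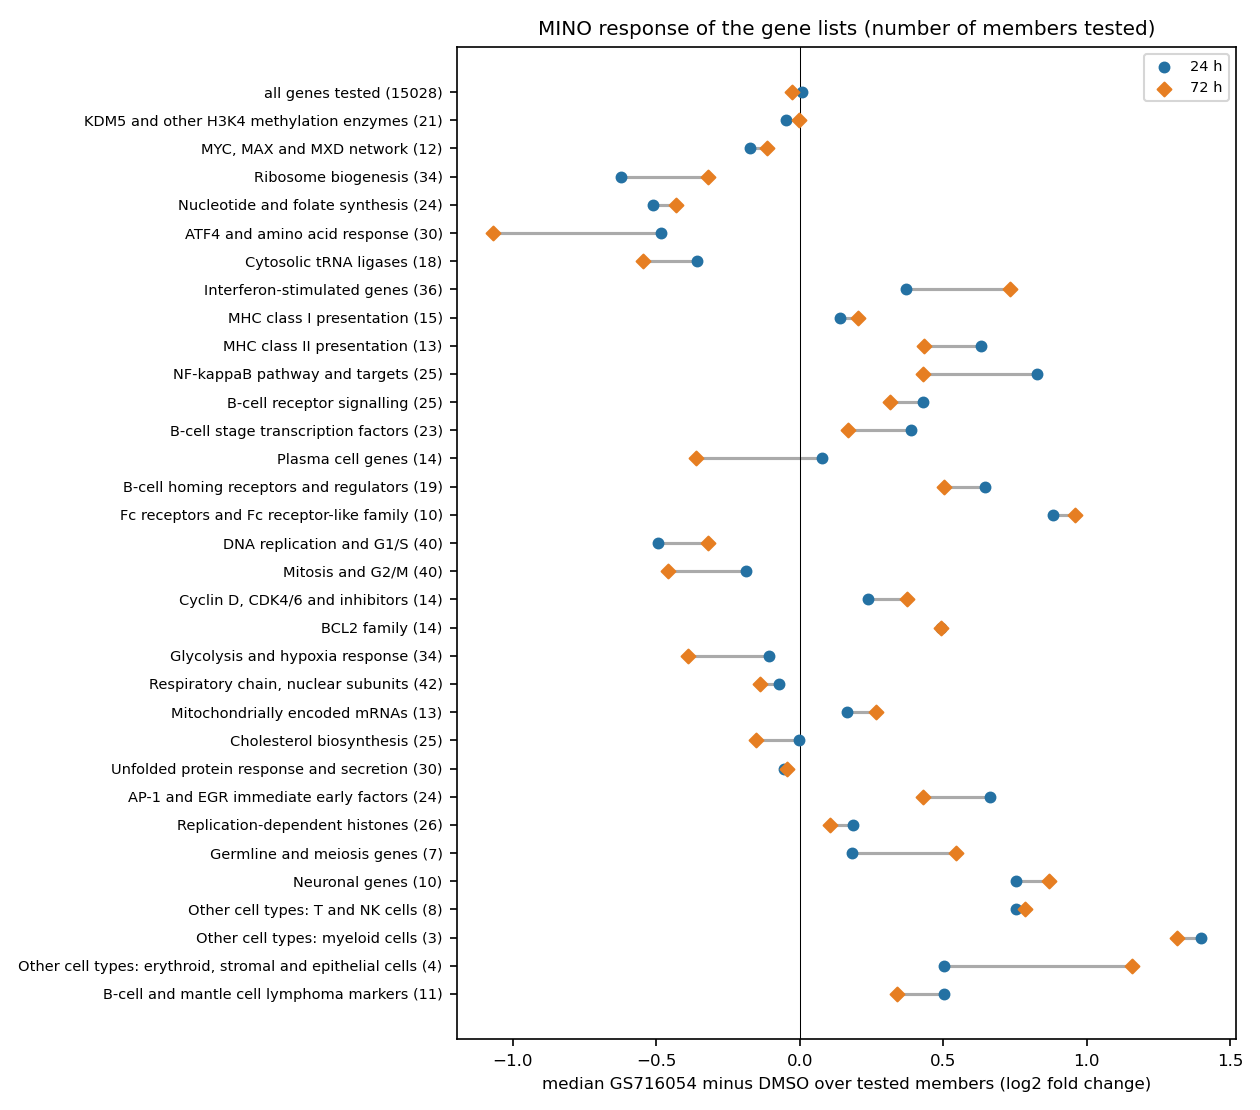
Median log2 response to GS716054 over the tested members of each gene list, at 24 h (blue circles) and 72 h (orange diamonds), with the number of members tested in brackets. The ATF4 list moved from −0.48 to −1.07, the interferon list from 0.37 to 0.73 and the NF-kappaB list from 0.83 to 0.43, while the median over all tested genes was 0.01 and −0.03.

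The change in MINO was tested against that in the other lines in a model of all 36 libraries, as the change in MINO minus the mean of the changes in JEKO and UPN-1. Of 17980 genes tested, 47 were called (0.261%), 16 higher (0.089%) and 31 lower (0.172%) in MINO, while 1767 passed 0.05 before adjustment. Of the 102 genes called in MINO, 31 were among them. In that model the change itself was called for 279 genes in MINO, 1 in JEKO and 0 in UPN-1, with 1109 genes in JEKO and 627 in UPN-1 at an unadjusted p under 0.05. Without the block 1 gene was called in the difference between the lines, and leaving out 1 number of MINO gave 15 to 98 calls, the lowest without number 3 of 24 h and the highest without number 2 of 72 h.

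Of the named genes, 10 differed from the other lines. DDIT4 had a change of −2.46 in MINO in this model, −0.16 ± 0.21 in JEKO and 0.10 ± 0.21 in UPN-1, a difference of −2.44 (adjusted p = 1.62e-05). SLC2A5 differed by −2.80 (adjusted p = 5.32e-07) and COL18A1 by 2.66 (adjusted p = 0.000183), with changes of 0.26 ± 0.14 and 0.04 ± 0.26 in JEKO and of 0.06 ± 0.16 and 0.08 ± 0.27 in UPN-1. ASS1 had a change of −2.96 in MINO, −1.05 ± 0.28 in JEKO (adjusted p = 0.32) and −0.47 ± 0.27 in UPN-1, and the difference was −2.20 (adjusted p = 0.00642). INHBE differed by −3.05, SPP1 by −2.06, BNIP3 by −1.08, POLR1G by 0.90, LGALS3BP by 1.25 and H2BC5 by 1.93, with adjusted p from 0.00735 to 0.0441. WARS1 (adjusted p = 0.0794), KDM5B (0.118) and LTB (0.683) were not shown to differ between MINO and the other lines.

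**Figure D5:**
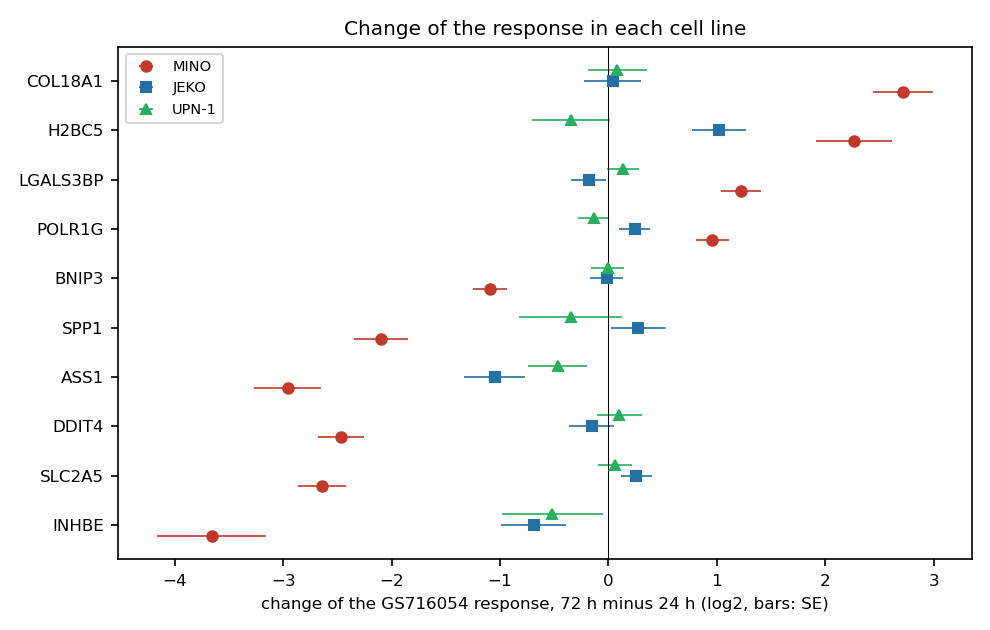
Change of the log2 response to GS716054 from 24 h to 72 h, with its SE, in MINO (red circles), JEKO (blue squares) and UPN-1 (green triangles), for the 10 named genes whose change differed between MINO and the other lines. The MINO value lies farthest from 0 for each gene, from −3.66 for INHBE to 2.71 for COL18A1.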

How the data were processed

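Extraction used a Qiagen kit for mRNA, per the labels' protocols, and whether counting used read strand is not given in the sources used here. Reads were handled with HISAT2 2.2.1, HTSeq 0.13.5 and genome build GRCh38, per the submitters' processing notes. The authors deposited 1 file of raw read counts per gene for each library. Rows that name no gene were left out of library sizes and tests. Reads assigned to no feature were 43.4% to 44.5% of each MINO library. Of 58302 gene identifiers, 57532 were matched to the annotation for names and positions.

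Counts of the 12 MINO libraries were tested in edgeR 4.0.16 (R 4.3.3, limma 3.58.1) with TMM scaling, the filterByExpr filter (counts of at least 10, totals of at least 15), and the quasi-likelihood F test. The model had 6 blocks of time and replicate number, a GS716054 effect at each time and 4 residual degrees of freedom. Adjusted p-values are Benjamini-Hochberg over all genes tested. A second model held all 36 libraries, with 18 blocks, 6 effects and 12 residual degrees of freedom. CPM values use TMM-scaled library sizes, and their precision is limited by counting and by 3 libraries per group. Each SE came from the Fisher information of the fit and its quasi-likelihood dispersion. The scripts were tested on simulated data.

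The labels give DMSO and GS716054 libraries shared replicate numbers. Deviations from the group means correlated between the treatments of each number (r = 0.13, 0.27 and 0.18 at 24 h, and 0.47, 0.55 and 0.29 at 72 h), each over 0.1. The largest r with another number was 0.03, −0.13 and 0.03 at 24 h, and 0.33, −0.30 and 0.33 at 72 h. For number 3 of 72 h that value exceeded the r of its own number. Pairing by number was set by the planned design, and these values do not clearly bear it out for number 3 of 72 h. The replicates of a group differed by more than counting noise in every pair of libraries (chi-square per gene 5.56 or more).

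Named genes are 10 genes of KDM5 and mantle cell lymphoma, the largest changes in each class among protein-coding genes whose mean log2 CPM reached 1, the strongest sustained genes and called members of the lists. Genes named for their class also had to have within-number differences at 72 h that did not overlap those at 24 h. Sustained genes were named for their size only where treated and DMSO libraries did not overlap at either time, so that separation is a condition and not a result. SESN2, PHGDH, ATF4, CCL3, CCL4, ISG15 and MX1 were added after their values were seen. A gene that the rule names is not reported here. Members and lists were chosen with earlier results of these data known. Alternatives were other blocks, DESeq2 1.42.0 size factors and test, other filters, all 36 libraries, and leaving out each pair. The fit without number 2 at both times was chosen after seeing the data.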

Additional observations from a re-analysis of the deposited data

Results flagged for a closer look

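The response to GS716054 differed between 24 h and 72 h in MINO for 102 genes by the test of the difference itself. The change in MINO differed from the mean change of JEKO and UPN-1 for 47 genes. Of the named genes, the difference between MINO and the other lines was −3.05 for INHBE, −2.80 for SLC2A5, −2.44 for DDIT4, −2.20 for ASS1, −2.06 for SPP1 and −1.08 for BNIP3 on the log2 scale. It was 2.66 for COL18A1, 1.93 for H2BC5, 1.25 for LGALS3BP and 0.90 for POLR1G. These 10 had edgeR adjusted p from 5.32e-07 (SLC2A5) to 0.0441 (H2BC5).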

How the results depend on the processing

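The count of 102 changed genes (28 up, 74 down) was 2 (0 up, 2 down) without the replicate block, 6 (1 and 5) with the replicate number alone as block, 159 (48 up) with DESeq2, 279 (86 and 193) with all 36 libraries, 404 (105 and 299) without the low-count filter and 1021 (502 and 519) without number 2 at both times. Without 1 number it was 13 to 611 (1 to 306 up, 12 to 305 down). Without the block, 755 genes had an unadjusted p under 0.05.

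In the order no block, number alone as block, DESeq2, all 36 libraries, no filter and without number 2, early-only genes (18) numbered 0, 1, 34, 73, 89 and 235, and late-only genes (49) numbered 2, 3, 86, 145, 214 and 572. In that order without DESeq2, reversed genes (18) numbered 0, 1, 32, 28 and 68, and strengthened genes (15) 0, 1, 25, 52 and 93. Without 1 number the ranges were 1 to 220 early-only, 6 to 248 late-only, 3 to 49 reversed and 1 to 70 strengthened. Sustained genes (1253) numbered 192 without the block, 524 with the number alone and 351 to 1679 without 1 number. Calls at 24 h (2373) numbered 359, 994 and 456 to 4059, and calls at 72 h (3029) 835, 1536 and 1901 to 3514.

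ATF4 list members moving down (6) numbered 2 without the block, 2 with the number alone, 10 without number 2 and 3 to 7 without 1 number. Glycolysis and hypoxia members (4) numbered 0, 0, 8 and 0 to 7. Genes that differed from the other lines (47) numbered 1 without the block, 108 with DESeq2, 215 without the filter and 15 to 98 without 1 number.

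Of 686 single-gene values under the alternatives, 515 kept direction and side of the threshold, 155 lost the call, 4 gained it and 12 changed sign, all in genes with no called change. Without 1 number, MCL1 ranged from −0.019 to 0.1995, SOX11 from −0.122 to 0.080 and ADAMTS14 from −0.419 to 0.226. MCL1 was −0.017 and −0.019 without number 3 of 24 h and number 2 of 72 h. SOX11 was 0.019 without number 2 of 24 h, 0.080 without number 2 of 72 h and 0.148 without both. ADAMTS14 was −0.080 with the number alone, −0.0088 without the filter, −0.017 with DESeq2, −0.022 with all 36 libraries, −0.213 and −0.419 without number 2 of 24 h or of 72 h and −0.635 without both. The cause of these shifts was not tested. With 4 residual degrees of freedom and CPM near 1, low genes such as RGS1, EVPL and ST6GALNAC3 carry wide intervals.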

Other observations

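Some genes called in the change lie next to each other, a pattern chosen after the values were seen. Among the 101 called genes with a position, 12 pairs lay within 100 kb, involving 21 genes, and the members of all 12 pairs moved in the same direction. The share of such pairs over all tested genes was not computed, and 74 of the 102 called genes moved down. The counts of pairs are therefore a description and not a result about neighbouring genes. On chromosome 6, LTB (change 1.48), NCR3 (1.59) and AIF1 (1.35), a calcium-binding protein of macrophages and lymphocytes, lie with gaps of 6.37 kb between LTB and NCR3 and 22.2 kb between NCR3 and AIF1. The histone genes H2AC6 (1.28) and H2BC5 (2.25) lie 19.0 kb apart. Of the 12 pairs, 7 overlap on opposite strands, among them COL18A1 with SLC19A1, IL4I1 with ATF5, and BHLHE40 with BHLHE40-AS1. The overlaps are partial for these 3 pairs, at 18.5% of the exon length of COL18A1, 3.0% of that of IL4I1 and 12.8% of that of BHLHE40, and near complete for the antisense genes of WARS1, CTSA and ALDOC. Reads from the shared stretch cannot be told apart unless both the library and the counting kept strand, which is not given in the sources used here. The antisense genes of WARS1, ALDOC and CTSA had mean levels of 50.3, 54.3 and 11.9 CPM with DMSO at 72 h. Whether these levels repeat reads of the partner genes was not tested. COL18A1 and SLC19A1 had 72 h responses of 2.08 and −0.42.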
